A study of Mus musculus with 8 samples.

Results

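The nuclear-encoded subunits of oxidative phosphorylation were taken from the deposited gene table by the names of their genes, which are the numbered Nduf genes of series a, b, c, s and v, Sdha to Sdhd, the Uqcr genes, Cyc1, Cycs, the genes from Cox4 to Cox8, and the Atp5 genes. The rule uses names only, which matched 85 of the 23997 genes in the table. The cells were marginal zone B cells of C57BL/6 mice, a splenic B cell population. They were compared between 2 groups that the labels give under genotype as ACKR3+ and ACKR3-, with 4 RNA libraries per group. Whether the 2 groups were sorted from the same mice or from different mice could not be told here. The sample titles name the same groups as positive or negative for GFP. ACKR3 is an atypical chemokine receptor, and the labels do not give the GFP reporter allele, the age or the sex of the mice, or the gate used to sort the cells.

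In the deposited table every gene has 1 estimated number of fragments in a column q1 and 1 in a column q2, each pooled over the libraries of a condition. No label uses the names q1 and q2, so neither column was tied to ACKR3+ or ACKR3- cells, and all values are given by column. With 1 value per condition there is no replicate check and no test, the spread between mice cannot be seen, and the depth of each library is unknown. The errors below are SDs from the variances deposited with the estimates, carried to the log2 ratio of q2 over q1. The total was 16877559 fragments for q1 and 16653774 for q2. Ackr3 itself stood at 1030 fragments in q1 and 149 in q2. Fewer cells of a type and less RNA per cell cannot be told apart in such bulk values.

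Oxidative phosphorylation is the last stage of respiration in mitochondria. Complexes I and II pass electrons to ubiquinone, complex III passes them on to the small carrier cytochrome c, and complex IV hands them to oxygen. Complexes I, III and IV pump protons across the inner membrane, and complex V, the ATP synthase, uses their return to make ATP. Most subunits are encoded in the nucleus and imported, and the remaining core subunits are encoded by mitochondrial DNA. Resting B cells are small cells with modest metabolism, and activated B cells and plasma cells are known for larger mitochondrial demand.

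The subunits differed little between the columns. Of the 85 genes, 78 had at least 100 fragments in the higher column, the minimum used for a ratio, and 7 did not. The 78 include Atp5s and Atp5sl, which match by name only and are counted in the totals given for the subunits. The ratio was above 0, that is higher in q2, for 59 of the 78 and below 0 for 19. Over all 9582 genes that passed the same minimum, 50.2% were higher in q2 and 49.8% were higher in q1. The median log2 ratio of the subunits was 0.05, against 0.00 for all genes. Their middle ratios, from the lower to the upper quartile, ran from 0.00 to 0.11, a width of 0.101 against 0.205 for all genes. Only Ndufs5 had a log2 ratio of at least 0.32, the size rule used here, in favour of q2 and none in favour of q1, against backgrounds of 6.9% and 4.59% of all genes. None differed by 2-fold, against 1.84% of all genes higher in q2 and 0.438% higher in q1. Summed over the 85 genes, the subunits took 0.517% of the fragments in q1 and 0.541% in q2.

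These differences were mostly smaller than the deposited SDs. For most genes nearly all of the deposited variance was its dispersion part. The SD relative to the estimate mostly followed the number of fragments, with exceptions such as Ndufs7 and Atp5d. In q1, Cyc1 with 1023 fragments had an SD of 9.56% of the estimate, and Uqcrfs1 with 1028 had 9.55%. Whether the SDs match a gene's own spread between libraries was not tested. The median SD of a subunit's log2 ratio was 0.206, and the median subunit lay 0.298 SDs from 0, against 0.449 for all genes. A ratio exceeded its own SD for 4 subunits, Cycs, Ndufs4, Atp5k and Atp5l, all of them higher in q2. That is 5.13% of the subunits, against 19.5% of all genes. The 95% counting interval of the ratio, which covers counting error only, lay above 0 for 13 subunits and below 0 for 3, Cox7a2l, Atp5d and Atp5g2. It treats the rounded pooled estimates as plain counts, and since their scaling is not given, its width is approximate. Over all genes it lay above 0 for 19% and below 0 for 17.7%.

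**Figure D1:**
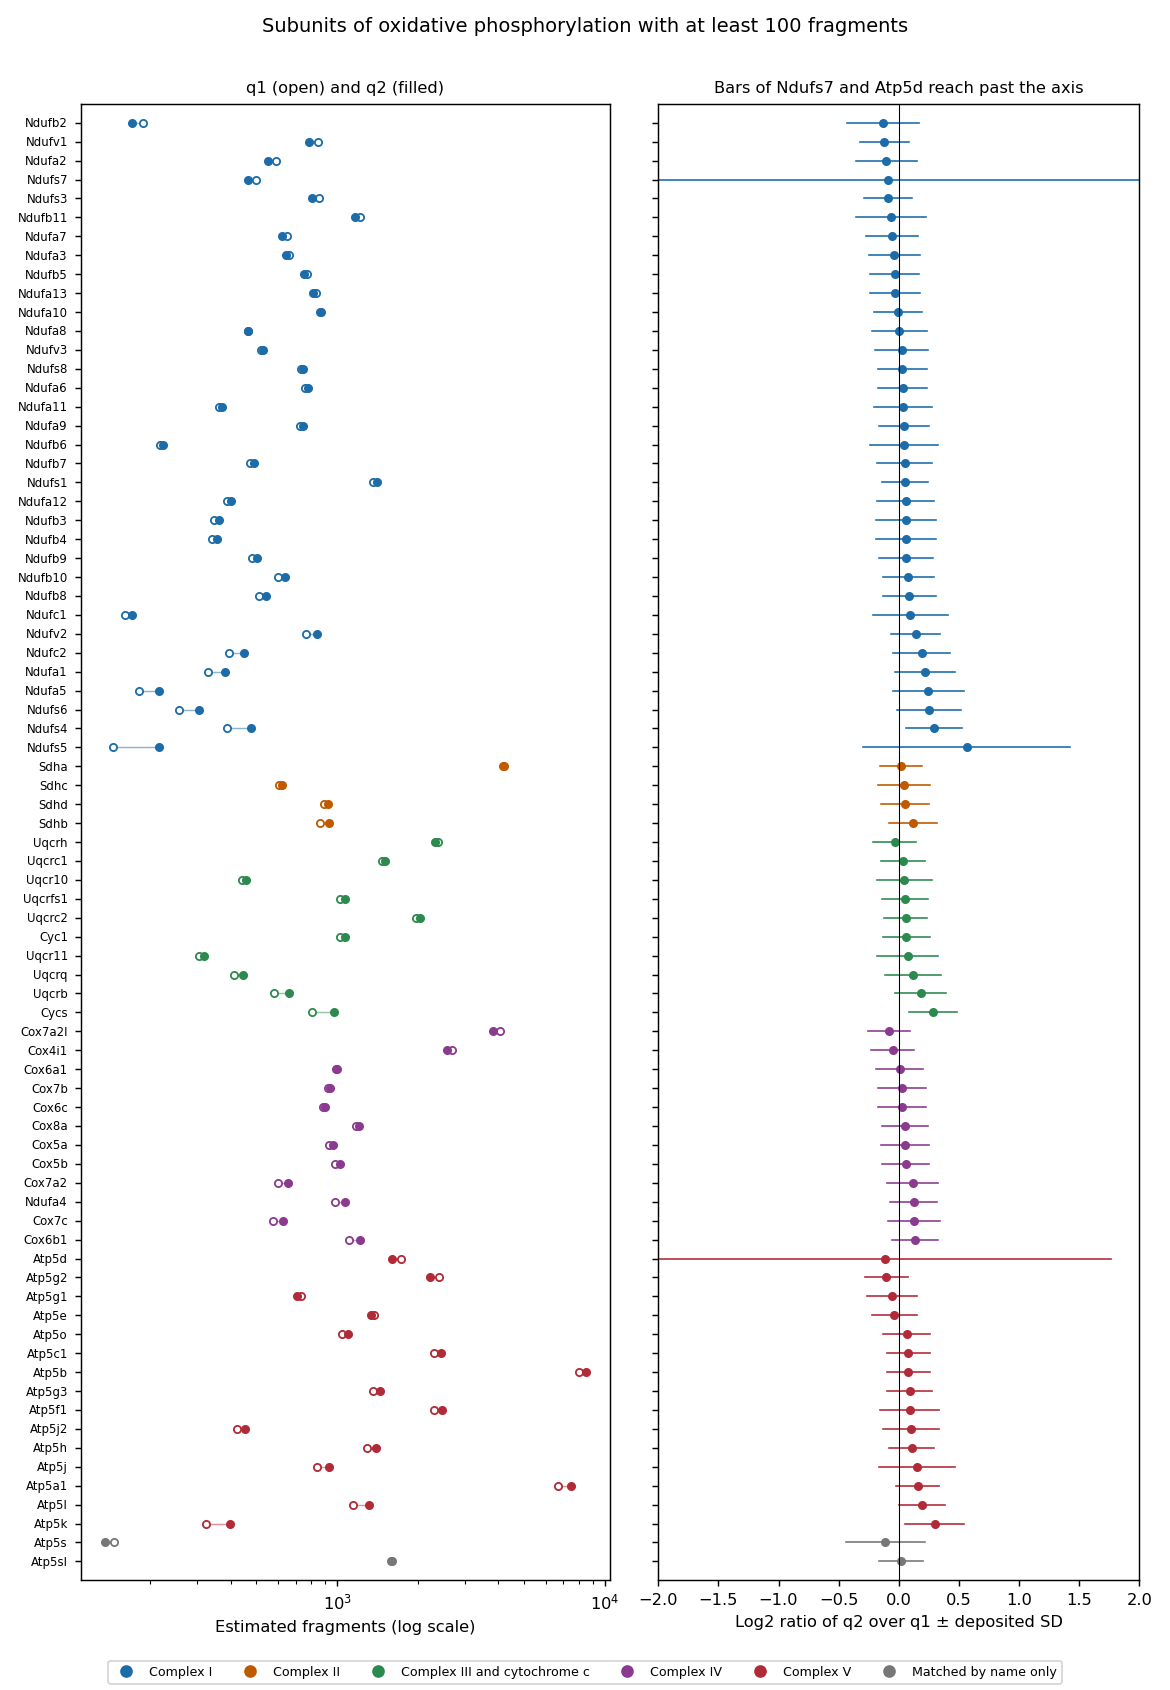
Left, the estimated fragments (log scale) of 77 subunit genes in q1 (open points) and q2 (filled points). Right, the log2 ratio of q2 over q1 with the deposited SD as bars, ordered within each complex by ratio. Most bars cross 0, Ndufs5 has the highest ratio at 0.56, and the bars of Ndufs7 and Atp5d reach past the axis.

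The complexes had medians close to each other. The median log2 ratio was 0.04 for complex I (24 of 35 genes higher in q2), 0.05 for complex II (4 of 4), 0.06 for complex III with cytochrome c (9 of 10), 0.05 for complex IV (10 of 12) and 0.09 for complex V (11 of 15). After correction for GC content, length and expression the medians were 0.04, 0.03, 0.07, 0.02 and 0.07 in that order, and 8 of 12 genes of complex IV were higher in q2. Here Ndufa4, now known as a complex IV subunit, was counted with complex IV, as was Cox7a2l, which helps to join complexes III and IV. Atp5s and Atp5sl match by name only and were kept apart. The summed fragments were 20726 in q1 and 21119 in q2 for complex I, 6525 and 6703 for complex II, 10403 and 10859 for complex III with cytochrome c, 15890 and 16018 for complex IV, and 32005 and 33741 for complex V. The sums were thus higher in q2 for every complex, by less in complex IV than in complex V.

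Levels differed more between complexes than between columns. Per transcript length, as FPKM (fragments per kilobase of transcript, scaled to the column's total) computed here, the median level in q1 was 34.2 for complex I, 44.0 for complex II, 48.7 for complex III with cytochrome c, 99.2 for complex IV and 114 for complex V. The same medians in q2 were 36.9, 47.2, 50.9, 105 and 123, in the same order. The complex V median leaves out Atp5g1, whose reference transcript length could not be used. These levels depend on the transcript taken for each gene and carry no replicate error.

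Complex I takes electrons from NADH through a chain of iron-sulfur clusters. Its 7 catalytic core genes were split, with 4 higher in q2 and 3 higher in q1. Most of them encode subunits that hold the flavin or the clusters or bind ubiquinone. Ndufs1, the largest cluster-bearing subunit, had 1361 fragments in q1 and 1410 in q2 (log2 ratio 0.05 ± 0.19). Ndufs8 had 731 and 747 fragments (0.03 ± 0.21). The flavin subunit Ndufv1, with 851 and 784 fragments (-0.12 ± 0.20), and its partner Ndufv2, with 763 and 841 (0.14 ± 0.20), stood on opposite sides of 0. Both ratios were smaller than their SDs.

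The genes of complex I with the highest ratios were accessory subunits, which surround the core and carry no redox group. Ndufs4, a subunit needed for stable assembly of the NADH-oxidising part, had 389 fragments in q1 and 477 in q2 (log2 ratio 0.29 ± 0.23). Ndufs6, which has a near-identical copy, had 256 and 305 fragments (0.25 ± 0.26). Ndufa5 had 182 and 216 (0.25 ± 0.29), and Ndufa1 had 329 and 383 (0.22 ± 0.25). At the other end, Ndufb2 of the membrane arm had 189 and 172 fragments (-0.13 ± 0.30). By part of the complex, the median was 0.04 for 10 genes of the NADH-oxidising module and 0.05 for 20 of the membrane arm. Per length, the highest levels in complex I were those of Ndufb11, at 79.7 in q1 and 77.2 in q2, Ndufa6 at 76.3 and 79.0, and Ndufa3 at 76.1 and 75.1.

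The highest ratio of all, that of Ndufs5, came with the widest error but for 2 genes described below. Ndufs5 (chr4:123712710-123718202, GRCm38) encodes a small accessory subunit of complex I. It had 146 fragments in q1 and 216 in q2, which is 1.48-fold higher (log2 ratio 0.56 ± 0.86). The deposited variance of its q1 value was 7253, of which 594 was ascribed to dispersion, a ratio of 12.2. The next highest such ratio among the 78 genes that passed the minimum was 1.29, and 6 of all genes tested exceeded 10. The table also lists BC002163, a processed pseudogene at chr16:42955631-42955949, whose 319 bases match the Ndufs5 transcript at 99.4% identity. BC002163 had 45.2 fragments in q1 and 3.22 in q2, the opposite direction. Reads from such copies can be assigned to either gene, so the values of both are uncertain. Summed, the pair had 191 fragments in q1 and 219 in q2 (log2 ratio 0.20 ± 0.67), and the counting interval of the sum ran from -0.09 to 0.48. The SD of the sum adds the variances of both genes as if independent. Shared reads can link their errors, so this SD may be too wide. With the pair summed, no subunit reached a log2 ratio of 0.32.

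**Figure D2:**
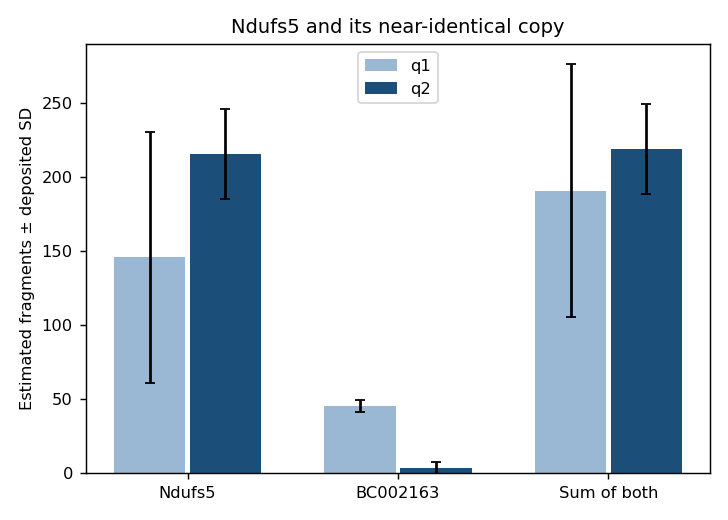
Estimated fragments of Ndufs5, of its near-identical copy BC002163 and of their sum in q1 (light bars) and q2 (dark bars). Error bars are the deposited SD, with variances added for the sum as if independent. Ndufs5 is higher in q2 and BC002163 is higher in q1, and the sums of 191 and 219 fragments lie within 1 SD of the q1 value.

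Other subunits have near-identical copies too. Of the 78 genes, 19 had at least 1 other annotated transcript that matched them closely, with 35 such copies in all. The table lists only 2 of the copies, BC002163 and Gm10012, a copy of Cox7c with 9.04 fragments in q1 and 8.82 in q2. The reads of the others are not separated here. Without the 19 genes, 45 of the remaining 59 were higher in q2. In addition, 25 subunit genes overlap an exon of another gene on the opposite strand and 4 on the same strand, and the strandedness of the counting is not given in the sources used here.

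Complex II oxidises succinate and is the link between the citric acid cycle and the respiratory chain. All 4 genes were higher in q2 by less than their SDs. Sdha, the flavin subunit, had 4159 fragments in q1 and 4215 in q2 (0.02 ± 0.18), with a level per length of 85.0 and 87.3, the highest of the 4. Sdhb, the iron-sulfur subunit, had 863 and 935 fragments (0.12 ± 0.20). The membrane anchors followed, Sdhc with 607 and 625 fragments (0.04 ± 0.21) and Sdhd with 897 and 928 (0.05 ± 0.20). The levels per length of Sdhb were 44.8 in q1 and 49.2 in q2, and those of Sdhd were 43.2 and 45.3.

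Cytochrome c had the ratio farthest from 0 relative to its error among all subunits. Cycs (chr6:50562563-50566538) encodes this mobile carrier, which also triggers apoptosis when it leaves the mitochondrion. It had 803 fragments in q1 and 977 in q2 (log2 ratio 0.28 ± 0.20), which lies 1.42 SDs from 0. Cycs has near-identical copies. Its transcript has a low GC content of 40.8%, and after correction for GC content, length and expression over all genes the ratio was 0.20. The complex III genes that pass electrons to it lay nearer 0. Cyc1, for cytochrome c1, had 1023 and 1068 fragments (0.06 ± 0.19). Uqcrfs1, the iron-sulfur subunit, had 1028 and 1066 fragments (0.05 ± 0.19). The core gene Uqcrc1 had 1472 and 1507 fragments (0.03 ± 0.19), and Uqcrc2 had 1962 and 2039 (0.06 ± 0.18). Among the small subunits, Uqcrb, which also has near-identical copies, had 581 and 659 fragments (0.18 ± 0.21, and 0.07 after the correction). Uqcrh, a hinge protein at the docking site of cytochrome c, had 2377 and 2320 fragments (-0.03 ± 0.18) and was the only gene of the set higher in q1. Its level per length, 257 in q1 and 255 in q2, was the highest of any subunit in q1, followed in the set by Uqcrb at 64.4 and 74.0 and Uqcrc2 at 61.3 and 64.6.

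Complex IV reduces oxygen with subunits that exist as tissue isoforms, and the 7 genes below the minimum were all among them. Cox4i1, the general form of subunit 4, had 2678 fragments in q1 and 2582 in q2 (-0.05 ± 0.18). Its partner Cox4i2, a form known from lung, was listed at 0 and 0.51. Cox6a1 had 994 and 999 fragments (0.01 ± 0.20), and the heart and muscle form Cox6a2 had 0.59 and 1.93. Cox6b1 had 1108 and 1213 fragments (0.13 ± 0.19), and the testis form Cox6b2 had 1.84 and 3.80. Cox7a2 had 604 and 654 fragments (0.11 ± 0.21), and the heart and muscle form Cox7a1 had 2.48 and 3.87. Cox7b had 926 and 944 fragments (0.03 ± 0.20), and Cox7b2 was listed at 0 in both columns. Cox8a had 1172 and 1212 fragments (0.05 ± 0.19), Cox8b, known from muscle and brown fat, had 1.23 and 0.42, and Cox8c was listed at 0 in both columns. The general form thus carried nearly all fragments of each pair in both columns. The step between the sets was wide, since the highest value of the 7 was 3.87. The lowest gene above the minimum, Atp5s, which matches by name only, had 147 fragments in its higher column.

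Among the other genes of complex IV the highest ratios were those of Cox6b1 and Cox7c, which had 576 and 629 fragments (0.13 ± 0.21). Ndufa4 had 980 and 1068 fragments (0.12 ± 0.19, and 0.03 after the correction). The lowest was that of Cox7a2l, with 4048 and 3816 fragments (-0.09 ± 0.18), and this gene has a near-identical copy. Per length the highest levels were those of Cox7a2l, at 223 in q1 and 213 in q2, Cox4i1 at 207 and 203, and Cox8a at 126 and 132.

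Complex V held the genes with the most fragments of the set. Atp5b, for the catalytic beta subunit of the F1 head, had 8030 fragments in q1 and 8485 in q2 (0.08 ± 0.18), and its level per length was 248 and 266. Atp5a1, for the alpha subunit that alternates with beta, had 6681 and 7452 fragments (0.16 ± 0.18), a level of 160 and 181. Both differences were within 1 SD. Between them in level per length stood Atp5g2, at 195 in q1 and 183 in q2, and Atp5e, for the epsilon subunit, at 193 and 190.4. The head as a group of 5 genes had a median log2 ratio of 0.08, with Atp5d and Atp5e higher in q1.

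Within complex V, Atp5k and Atp5l had the highest ratios. Atp5k, for the e subunit, which helps synthases pair along the cristae, had 324 fragments in q1 and 399 in q2 (log2 ratio 0.30 ± 0.25, and 0.30 after the correction). Atp5l, for the g subunit beside it, had 1148 and 1313 fragments (0.19 ± 0.19, and 0.13 after the correction). Atp5j2, for the f subunit, had 422 and 453 fragments (0.10 ± 0.23). Both Atp5k and Atp5l have near-identical copies. The 4 genes of the peripheral stalk, which holds the head still, were all higher in q2 with a median of 0.10, and each lay within its SD. The 3 genes for the c ring, which turns as protons pass and whose genes encode the same mature protein, did not share a side of 0. Atp5g1 had 736 and 708 fragments (-0.06 ± 0.21), Atp5g2 had 2401 and 2231 (-0.11 ± 0.18) and Atp5g3 had 1357 and 1444 (0.09 ± 0.19). Atp5g2 carried the most fragments of the 3 in both columns. Atp5g1 and Atp5g2 also have near-identical copies, whose reads are not separated here. Of the genes matched by name only, Atp5s had 147 and 136 fragments (-0.11 ± 0.33) and Atp5sl had 1585 and 1604 (0.02 ± 0.19).

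The errors of Ndufs7 and Atp5d were far wider than those of the other subunits. Ndufs7, which holds the last iron-sulfur cluster before ubiquinone, had 497 and 466 fragments with a deposited SD of 171% of the q1 estimate, which gave a log2 ratio of -0.09 ± 3.49. Atp5d, for the delta subunit of the F1 stalk, had 1739 and 1607 fragments with an SD of 91.2% in q1, a ratio of -0.11 ± 1.87. The median SD over all genes was 10.4% of the q1 estimate. Both genes lie in a run of 26 consecutive tested genes on chromosome 10 (chr10:79704491-80320537) in which every SD exceeded 25% in both columns. Of the other genes, 2.26% did so. Uqcr11, the subunit gene next beyond the run, had an SD of 12.6% in q1. The median log2 ratio in the run was -0.05, so the estimates of its genes differed little between columns. The source of these variances was not tested.

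**Figure D3:**
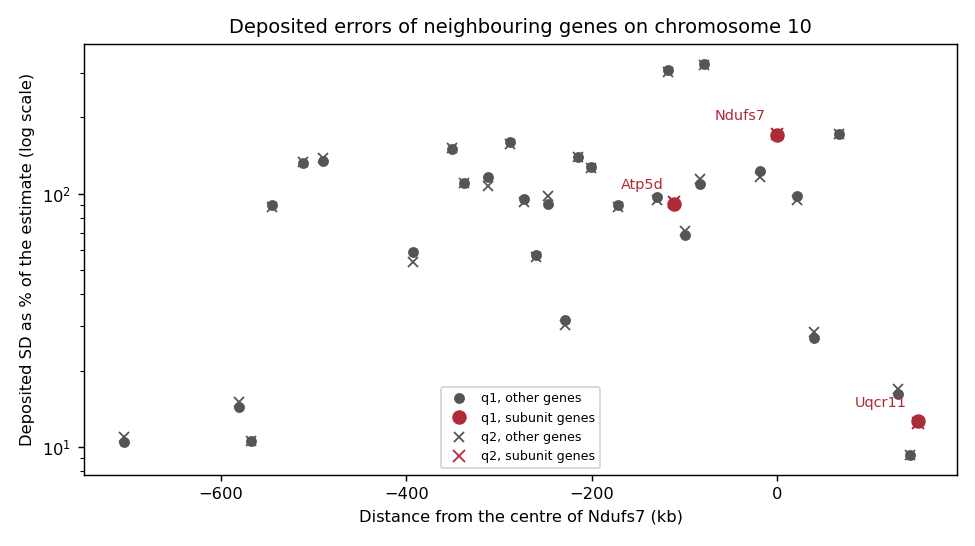
Deposited SD as a percentage of the estimate (log scale) against the distance in kilobases from the centre of Ndufs7, for neighbouring tested genes on chromosome 10 in q1 (circles) and q2 (crosses), with subunit genes in red. Ndufs7 at 171% and Atp5d at 91.2% lie inside the run of raised values, and Uqcr11 at 12.6% lies outside it.

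The start sites of the subunit genes are shown for the 4 whose ratio exceeded its SD and for an isoform pair of complex IV with unequal levels, Cox8a and Cox8b. Each sequence holds 250 bases before and 50 after the start given by RefSeq on GRCm38.p6, on the gene's strand, which is the minus strand for all 6. The regions are chr6:50566520-50566819 for Cycs, chr13:114388045-114388344 for Ndufs4, chr5:108434350-108434649 for Atp5k, chr9:44920693-44920992 for Atp5l, chr19:7217567-7217866 for Cox8a and chr7:140900397-140900696 for Cox8b. Capitals mark every match, on either strand, to 4 motifs: CGCANGCGC (or GCGCNTGCG), recognised by NRF1; CCGGAAG (or CTTCCGG), recognised by ETS factors such as GABP; AAGATGGC (or GCCATCTT), recognised by YY1; and TATAAA (or TTTATA), the letters of the TATA box, wherever in the window they fell. NRF1, GABP and YY1 are known regulators of respiratory chain genes.
Cycs: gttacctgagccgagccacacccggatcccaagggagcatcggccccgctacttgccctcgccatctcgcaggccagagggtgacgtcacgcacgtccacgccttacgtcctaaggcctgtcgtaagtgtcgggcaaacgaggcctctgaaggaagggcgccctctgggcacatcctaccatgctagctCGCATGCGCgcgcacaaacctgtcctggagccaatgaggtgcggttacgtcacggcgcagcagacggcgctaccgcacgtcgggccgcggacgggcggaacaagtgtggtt
Ndufs4: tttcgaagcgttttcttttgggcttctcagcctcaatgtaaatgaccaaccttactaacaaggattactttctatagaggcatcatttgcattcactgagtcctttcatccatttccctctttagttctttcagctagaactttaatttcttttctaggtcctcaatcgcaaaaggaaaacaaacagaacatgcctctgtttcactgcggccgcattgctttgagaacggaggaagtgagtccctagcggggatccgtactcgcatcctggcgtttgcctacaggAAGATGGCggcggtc
Atp5k: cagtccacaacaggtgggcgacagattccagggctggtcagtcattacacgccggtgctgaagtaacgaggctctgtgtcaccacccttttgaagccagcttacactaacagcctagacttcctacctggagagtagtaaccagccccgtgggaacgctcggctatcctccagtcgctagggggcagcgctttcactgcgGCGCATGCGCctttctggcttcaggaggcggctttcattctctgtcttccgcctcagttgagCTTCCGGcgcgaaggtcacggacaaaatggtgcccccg
Atp5l: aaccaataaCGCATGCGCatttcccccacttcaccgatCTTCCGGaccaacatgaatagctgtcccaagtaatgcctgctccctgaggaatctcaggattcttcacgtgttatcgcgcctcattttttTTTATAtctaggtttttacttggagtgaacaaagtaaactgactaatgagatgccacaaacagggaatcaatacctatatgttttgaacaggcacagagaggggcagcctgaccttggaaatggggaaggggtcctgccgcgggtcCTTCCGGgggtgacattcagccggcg
Cox8a: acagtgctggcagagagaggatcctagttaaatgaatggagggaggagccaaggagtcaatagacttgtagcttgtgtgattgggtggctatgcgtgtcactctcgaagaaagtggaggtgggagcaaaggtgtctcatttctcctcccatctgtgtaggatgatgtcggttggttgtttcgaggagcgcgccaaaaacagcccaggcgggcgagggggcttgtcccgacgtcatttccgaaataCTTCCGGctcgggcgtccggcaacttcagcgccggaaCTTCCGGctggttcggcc
Cox8b: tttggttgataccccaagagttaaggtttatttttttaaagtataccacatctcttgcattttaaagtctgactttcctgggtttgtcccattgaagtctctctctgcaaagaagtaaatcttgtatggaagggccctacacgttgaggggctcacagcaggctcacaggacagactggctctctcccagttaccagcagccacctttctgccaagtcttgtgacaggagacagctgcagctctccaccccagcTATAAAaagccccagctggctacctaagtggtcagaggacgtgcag

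Cycs and Atp5l each held the NRF1 motif in these windows, and Atp5k held a palindromic form of it that matches on both strands. Ndufs4 held the YY1 motif in the 50 bases after its given start. Cox8a held the ETS motif at 2 places, and Cox8b held the letters of the TATA motif just after its given start. Promoters were matched for 70 of the 85 genes. Of the 66 matched genes with at least 100 fragments, 34.8% held the NRF1 motif, against 16.4% of all genes at that level and 6.59% of all 27025 promoters. The YY1 motif was in 15.2% of the 66, against 5.66% of genes at that level and 2.88% of all promoters. The ETS motif was in 22.7%, close to the 22.0% of genes at that level, against 9.12% of all promoters. The TATA motif was in 7.58%, against 6.29% and 14.2%. Of the 4 matched genes below the minimum, 2 held the TATA motif and none held another of the motifs. A match is a string of letters and does not show that a factor binds. Among the 66, 22 of 23 genes with the NRF1 motif were higher in q2, with a median log2 ratio of 0.06, and 27 of 43 without it, with a median of 0.05. Over all genes the shares higher in q2 were 52.2% with the motif and 49.97% without. The split by motif was made after the ratios were seen and is a description only.

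Genes that serve the complexes without being part of the name pattern were followed in lists. The 3 subunits outside the pattern were all higher in q2. They were Usmg5, a small ATP synthase subunit, with 382 and 453 fragments (0.24 ± 0.28), 2010107E04Rik with 608 and 672 (0.14 ± 0.21) and Ndufab1 with 335 and 356 (0.09 ± 0.25). Their median of 0.14 was 0.04 after the correction, and Usmg5 then stood at 0.15. Assembly factors, which build the complexes and then leave, had a median log2 ratio of -0.03 over 44 genes, with 18 higher in q2 and 26 higher in q1. By complex the medians were 0.00 for 13 factors of complex I, -0.14 for 2 of complex II, 0.02 for 4 of complex III, -0.02 for 21 of complex IV and -0.07 for 4 of complex V. Nubpl, which delivers iron-sulfur clusters to complex I, had 103 and 83.1 fragments (-0.30 ± 0.38), and Coa7, a complex IV factor, had 106 and 131 (0.30 ± 0.35). The subunits encoded by mitochondrial DNA were not analysed here.

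Genes that control mitochondrial gene expression and biogenesis had a median of 0.03 over 18 genes, with 11 higher in q2. The coactivator Ppargc1b stood at 271 fragments in q1 and 211 in q2 (-0.36 ± 0.28), and its partner receptor Esrra at 948 and 796 (-0.25 ± 0.28). Among other routes of electron entry and ubiquinone synthesis, 8 of 15 genes were higher in q2 with a median of 0.08. Gpd2, the glycerol phosphate dehydrogenase of the inner membrane, had 735 and 1047 fragments, a log2 ratio of 0.51 ± 0.20 and of 0.48 after the correction. Hccs, which attaches heme to cytochrome c, had 440 and 526 fragments (0.26 ± 0.23). Carriers that exchange ATP, ADP and phosphate had a median of -0.02 over 6 genes, and mitochondrial antioxidant enzymes had -0.08 over 8 genes with 6 higher in q1. Mitochondrial import genes were split evenly, 11 and 11, with a median of 0.00.

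Beside 3 other large sets of housekeeping complexes, the subunits lay with the mitochondrial ribosome, between the proteasome and the cytosolic ribosome. The mitochondrial ribosome had a median log2 ratio of 0.05, with 52 of 77 genes higher in q2. The proteasome had 0.11, with 35 of 37 higher in q2. The cytosolic ribosome had -0.13, with 73 of 77 higher in q1, and its median was -0.07 after the correction. Since no test was possible, these medians are descriptions and do not show that the sets differ between the conditions.

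**Figure D4:**
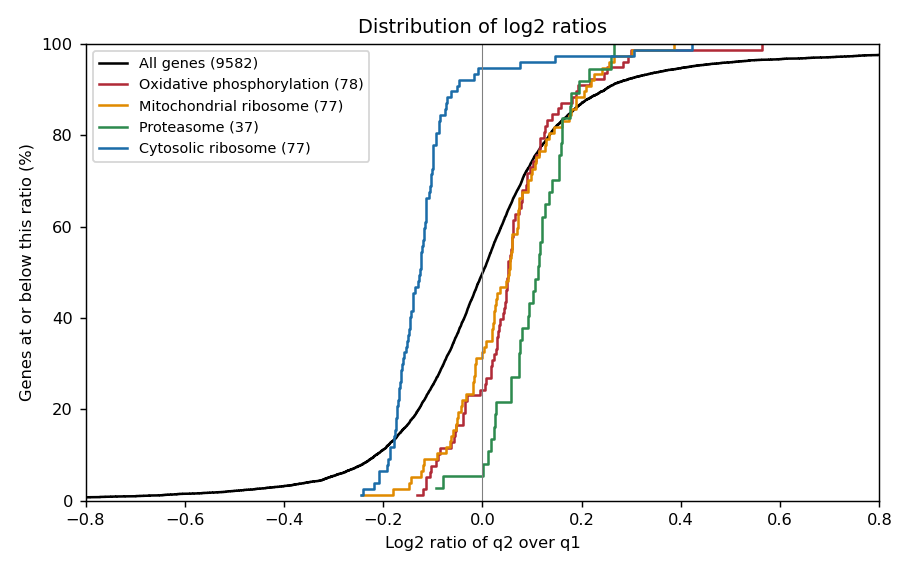
Cumulative percentage of genes against the log2 ratio of q2 over q1, for all 9582 genes and for 4 sets, with ratios past the axis drawn at its ends. The subunits and the mitochondrial ribosome lie slightly to the right of 0, the proteasome farther right at a median of 0.11 and the cytosolic ribosome left at -0.13.

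**Figure D5:**
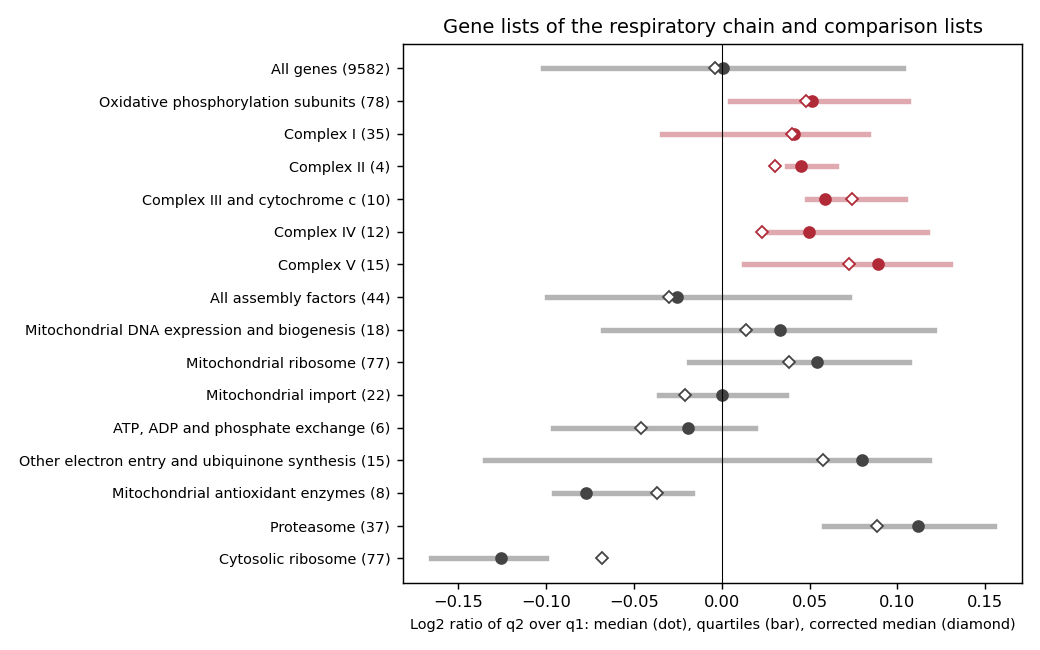
Median log2 ratio of q2 over q1 for each complex and each list of related genes, shown as a dot, with the quartiles of its genes as a bar and the median after the correction as a diamond. The dots of the complexes lie between 0.04 and 0.09, near the median of 0.00 for all genes.

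All marker lists with more than 1 gene above the minimum had medians farther from 0 than the median of the subunits. Cell cycle genes were all higher in q2 (26 of 26, median log2 ratio 1.73), and their sum was 11538 fragments in q1 and 25037 in q2. Plasma cell markers were higher in q2 for 12 of 13 genes (33526 and 72749 fragments). Igj, the joining chain of secreted antibodies, made up much of that difference, and without it the sums were 30292 and 39744. Germinal center markers were higher in q2 for 11 of 11 genes (973 and 3694). Marginal zone markers were higher in q1 for 12 of 13 genes, with a median of -0.39, and the defining genes Cr2 and Cd1d1 were present in both columns. Follicular B cell markers were higher in q2 for 5 of 7 genes, with a median of 0.83 and sums of 18934 and 23209 fragments. B cell identity genes were higher in q1 for 6 of 7, with a median of -0.11. Of the 9 macrophage and monocyte markers with a ratio, 6 were higher in q1 and 3 in q2, with log2 ratios from -1.49 to 1.79. The sum of that list was 1749 fragments for q1 and 1287 for q2. The sum was 884 and 1179 for T cell markers and 299.8 and 473 for platelet markers, each with 1 gene above the minimum. For erythroid markers it was 114 and 107, and for neutrophil markers 63.1 and 72.6, with no gene above the minimum. In the platelet list Pf4 and Gp9 were listed at 0 in q1, and the q1 fragments came from the other genes of the list. The part of any of these populations in the ratios of the subunits was not tested.

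The ratios also moved with base composition. Across the 78 subunit genes, the log2 ratio and the GC content of the transcript had a Spearman rho of -0.31 and a Pearson r of -0.27. Across 9529 genes the values were -0.32 and -0.16. Genes of one table share the libraries and their preparation and are not independent replicates, so these are descriptions. After the correction, 55 subunits were higher in q2 and 23 were higher in q1, with a median of 0.05.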

How the data were processed

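RNA from marginal zone B cells was sequenced as 8 libraries, 4 per group, made with an Illumina TruSeq kit per the labels' protocols. The submitters' processing notes name the mm10 build and the tools Cuffdiff 2.2.1, cutadapt 1.8.1 and TopHat2 2.0.14. The annotation, filters and scaling were not given in the sources used here. The authors deposited 1 estimated count of fragments per gene and condition, pooled over libraries, with its variance (per the file headers). The deposited part of the variance for isoform assignment was 0 in every row. For a few genes the total exceeded the dispersion part, and the header does not name the remainder. No other per-sample columns were present.

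Log2 ratios of q2 over q1 were computed from these estimated counts with a pseudocount of 1, which understates changes of low genes, for genes of at least 100 fragments in the higher column, and described by size, as planned for a table with 1 value per condition. SDs were taken to first order from the variances and counting intervals were exact binomial at 95% on the rounded estimates. Lengths, GC content and gene positions came from the GENCODE annotation of GRCm38, the same assembly as mm10, and promoters from RefSeq on GRCm38.p6. Near-identical copies were found with blastn 2.17.0 (at least 95% identity over at least 300 bases or 50% of the transcript). The corrected ratio is the remainder of a smooth fit on GC content, length and mean expression over all genes. Scripts used Python 3.11.15, pandas 2.3.3, numpy 2.4.6, scipy 1.17.1, statsmodels 0.14.6 and matplotlib 3.10.9 and were tested on simulated data. Named subunits were, per complex, the 3 highest per length, the largest ratio each way, the electron-carrying and catalytic genes, the isoform pairs and those whose ratio exceeded its SD. Outside this rule, Ndufs6, Ndufa5, Ndufa1, Sdhc, Cox7c, Ndufa4, Atp5j2 and Uqcr11 were also named. From other lists up to 2 genes with the largest ratios were named. Ackr3, all 3 subunits outside the pattern and the markers Cr2, Cd1d1, Pf4 and Gp9 were named too, not by that rule. The members and lists were chosen with earlier results of these data known. Other minimums, pseudocounts and scalings, the correction, and leaving out genes with copies were the alternatives. The values of 1 subunit gene are not reported here, though it is counted in the totals.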

Additional observations from a re-analysis of the deposited data

How the results depend on the processing

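The number of subunits higher in q2 by a log2 ratio of at least 0.32 was 1 and became 0 with a minimum of 500 fragments, without genes that have a near-identical copy, with Ndufs5 summed with BC002163, and without Ndufs5. The last 2 settings, and grouping by name, were chosen after seeing the data. The other 106 values of the main results that were recomputed stayed within the limits used. These limits were wide for medians this close to 0. A median could shift by up to about the counting error of 1 gene, and its side of 0 was not checked. The median log2 ratio of the subunits ranged from 0.05 to 0.07 over all alternatives, and its highest value came from scaling to equal totals, where 60 subunits were higher in q2 and 55.3% of all genes were. Subunits higher in q2 numbered 40 of 56 with a minimum of 500 fragments and 55 of 78 after the correction, so some ratios near 0 changed side. Among other lists, the plasma cell median of 1.02 became 1.37 with a minimum of 20 fragments and 0.74 with 500, the cell cycle median of 1.73 became 0.84 with 500, and the cytosolic ribosome median became -0.07 after the correction.

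No paired analysis was possible because every gene has only 1 value in each column, pooled over libraries, without any replicate number. Leaving out single libraries was not possible either. Depth per library is unknown. Genes and copies that share reads are not separated here, except where the table lists both.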
